A study of Mus musculus with 23 samples.

Results

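The MAP kinase cascade was followed through the RUNX1-ETO induction series by gene symbol. Members were all genes named Mapk, Map2k, Map3k or Map4k followed by a number, with symbols taken from the RefSeq identifier of each probe, and for a gene with several probes the values are those of the brightest on average. Of 43 such symbols, 41 had a probe and 37 reached a log2 intensity of 6.5 on at least 1 array and were tested, among 15202 genes tested of 20145 with a probe. By tier, 11 of 13 MAPK, 7 of 7 MAP2K, 15 of 18 MAP3K and 4 of 5 MAP4K genes were tested. Mapk10, Mapk15, Map3k19 and Map3k21 stayed below the limit on all arrays, and no probe was matched to Map3k10 or Map4k3.

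Cells came from 1 mouse ES cell line of the A2lox type (strain label C57BL/6) in which Dox (doxycycline) switches on an HA-tagged human RUNX1-ETO from a tetracycline-responsive promoter on a Runx1 wild-type background. All groups carried this transgene, and the controls received no Dox. Uninduced and induced haemogenic endothelium (HE, KIT+Tie2+CD41-), HE2 cells (KIT+Tie2+CD41+) and progenitors (KIT+Tie2-CD41+) were sorted from blast culture, the induced cells having had 0.1 μg Dox per ml from day 1. Myeloid progenitors were grown from KIT+CD41+ blast culture cells in cytokine medium, without Dox or with 0.1 μg per ml for 12 h. There were 3 single-colour Agilent arrays for each group, except 2 for uninduced and 2 for induced progenitors. Induced progenitor replicate 2 was on the slide of the myeloid arrays, with another scan date than the 2 uninduced progenitor arrays. Slide and Dox are therefore partly confounded in progenitors. The labels number the arrays of a group as biological replicates without saying whether cultures were separate, and P values measure the spread between these arrays, which may be in part technical. For the third induced myeloid array the labels disagree, the title giving a biological and the source name a technical replicate. It was kept. A further array of uninduced progenitors, titled a technical replicate, was normalized with the rest and not fitted.

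MAP kinase modules are relays. A MAP4K or a small GTPase activates a MAP3K, the MAP3K phosphorylates a MAP2K, and the MAP2K phosphorylates both the threonine and the tyrosine in the activation loop of a MAPK, which then acts on transcription factors and on further kinases. The ERK, JNK and p38 branches carry signals of growth factor receptors, cytokine receptors and stress, and in blood formation they lie downstream of KIT and of the cytokines of myeloid culture. Most of this control is by phosphorylation, which an mRNA array does not measure.

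All 7 MAP2K genes and all 4 MAP4K genes with a probe were well above background on each of the 22 fitted arrays, as were 13 of 17 MAP3K and 8 of 13 MAPK genes. Between 48.8 and 78.4% of spots were well above background per array. Runx1t1, whose probe can also read the ETO part of the transgene, rose in HE2 by 2.08, in progenitors by 3.96 and in myeloid progenitors by 2.06 on the log2 scale, and was 1.24 higher with Dox in HE, below the calling limit. In each HE and HE2 group, 1 array departed from the other 2 in the same way: uninduced HE replicate 2, induced HE replicate 2, uninduced HE2 replicate 2 and induced HE2 replicate 3 had correlations of 0.595 to 0.795 between their deviations from the group means across all tested genes, against -0.624 to 0.608 for the other 48 pairs of these arrays. Of the 37 members, 5 were on average more than 1 log2 unit lower on these 4 arrays than on the others of their groups (Map3k3, Mapk3, Map3k20, Map4k2 and Map3k11) and 1 (Mapk4) was more than 1 unit higher. Map3k3, a kinase upstream of ERK5 and p38, read 8.55, 8.31, 8.11 and 8.02 on the 4 arrays in that order, and 9.54 to 11.01 on the other 8 arrays of these groups. Without these 4 arrays, Map4k2 was also called with Dox in HE (1.67), the other calls with Dox in HE and HE2 stood, Mapk12 was lost and Map3k6 (1.44) gained from HE2 to progenitors, and Map3k15 was lost for the response in myeloid progenitors minus HE (-1.61). The cause was not tested.

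**Figure D1:**
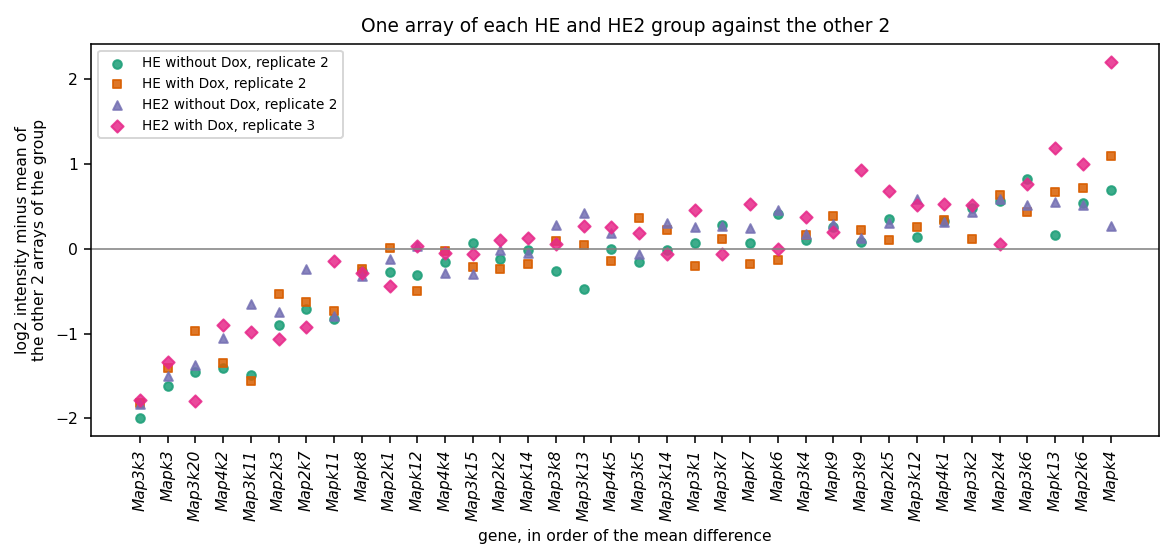
Difference in log2 intensity (y axis) between 1 array of each HE and HE2 group and the mean of the other 2 arrays of that group, for 36 of the 37 tested members (x axis, ordered by the mean of the 4 differences). Map3k3 lies between -2.00 and -1.78 in all 4 groups, and Mapk3, the gene of ERK1, between -1.62 and -1.34, whereas most members lie near 0.

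With Dox, 9 of the 37 members were called at 1 stage or more, among them the kinase genes Map4k2, Map3k6 and Mapk12 with rises of over 2-fold. This compares with 14.5% of all tested genes called at 1 stage or more. The calling rule was a limma P no higher than 0.001 together with a 2-fold or greater difference. Adjusted P values (Benjamini-Hochberg) cover all 15202 tested genes. With Dox, 4 of 37 members were called in HE (7.09% of all tested genes were) and 2 in HE2 (7.22%). The number was 1 in progenitors (3.73%) and 5 in myeloid progenitors (6.31%). At an adjusted P of 0.05 without a fold limit the counts were 5 in HE against 15.6% of all genes, 8 in HE2 against 17.2%, 2 in progenitors against 5.53%, and 8 in myeloid progenitors against 13.8%. The called shares of the members were 10.8, 5.41, 2.7 and 13.5% in the 4 stages, on both sides of the background, and nothing is read from them about the members as a group. Across the members the log2 change had a median of 0.13 for HE, 0.11 for HE2, -0.07 for progenitors and 0.15 for myeloid cells, beside -0.01, -0.03, -0.04 and -0.02 over all tested genes. Map3k9 and Map3k15 were called in more than 1 stage. A member that was not called may still have changed: over the 21 members with no adjusted P of at most 0.05 in a Dox comparison or an uninduced step, the 95% intervals of the Dox changes reached from -1.91 to 2.49.

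**Figure D2:**
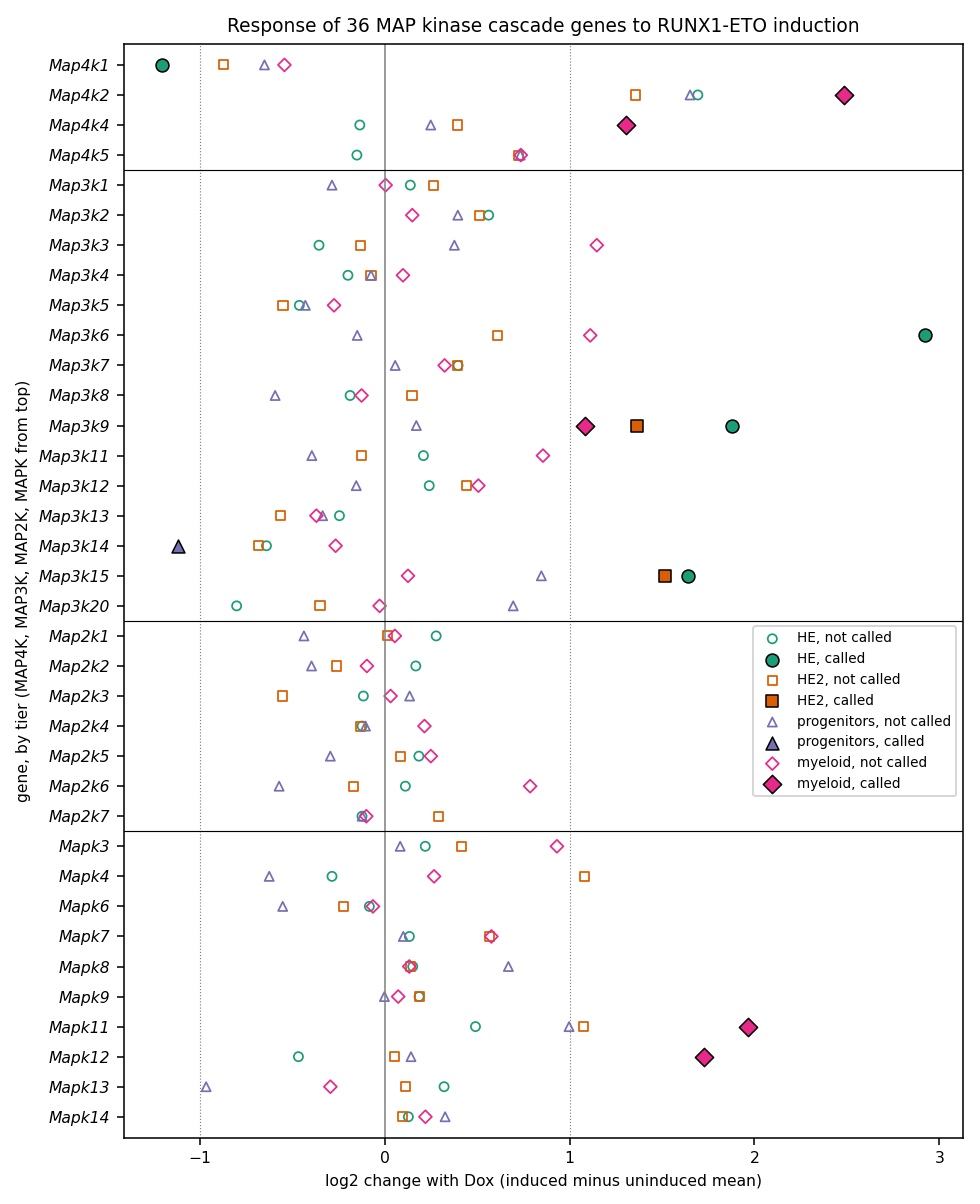
Log2 change with Dox (x axis, induced minus uninduced mean) of 36 of the 37 tested members (y axis, by tier from MAP4K at the top to MAPK at the bottom) in HE, HE2, progenitors and myeloid progenitors. Filled symbols are called members and dotted lines mark a 2-fold change. Map3k6 in HE lies farthest to the right at 2.92, and the 7 MAP2K genes lie between -0.57 and 0.79 with open symbols, a tier too small to be set against the 14.5% of all genes called at 1 stage or more.

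The promoters of 5 members that rose with Dox are shown to set the sequence at their starts beside their responses, Mapk11 and Mapk12 being neighbours on the same strand. Each is the 250 bases before the annotated start, 5′ to 3′ along the gene's strand, from RefSeq on GRCm38.p6. Capitals mark any of 6 motifs searched on both strands: the RUNX core TGTGGT or TGCGGT, the GC box GGGCGG, the ETS core CCGGAA, the GATA motif AGATAA, the AP-1 motif TGANTCA, and the CRE core TGACGT, where overlapping matches were counted separately. Mapk11 lies at chr15:89149607-89149856 (minus strand), Mapk12 at chr15:89140704-89140953 (minus), Map4k2 at chr19:6340910-6341159 (plus), Map3k9 at chr12:81781171-81781420 (minus) and Map3k6 at chr4:133240568-133240817 (plus).
Mapk11: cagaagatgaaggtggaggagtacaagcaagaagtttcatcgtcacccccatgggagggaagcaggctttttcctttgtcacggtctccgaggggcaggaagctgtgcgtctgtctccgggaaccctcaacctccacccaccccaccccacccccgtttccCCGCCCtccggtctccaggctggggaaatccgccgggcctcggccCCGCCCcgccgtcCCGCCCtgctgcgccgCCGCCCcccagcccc
Mapk12: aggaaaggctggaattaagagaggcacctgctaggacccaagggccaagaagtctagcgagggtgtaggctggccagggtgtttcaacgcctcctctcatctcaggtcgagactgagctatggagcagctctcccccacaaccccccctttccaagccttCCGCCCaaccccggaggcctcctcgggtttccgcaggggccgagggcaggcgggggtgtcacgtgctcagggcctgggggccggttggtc
Map4k2: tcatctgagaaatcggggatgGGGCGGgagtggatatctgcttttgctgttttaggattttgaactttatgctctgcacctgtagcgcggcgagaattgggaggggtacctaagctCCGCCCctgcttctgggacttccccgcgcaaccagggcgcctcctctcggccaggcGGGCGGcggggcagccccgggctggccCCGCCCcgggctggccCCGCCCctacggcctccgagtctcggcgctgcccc
Map3k9: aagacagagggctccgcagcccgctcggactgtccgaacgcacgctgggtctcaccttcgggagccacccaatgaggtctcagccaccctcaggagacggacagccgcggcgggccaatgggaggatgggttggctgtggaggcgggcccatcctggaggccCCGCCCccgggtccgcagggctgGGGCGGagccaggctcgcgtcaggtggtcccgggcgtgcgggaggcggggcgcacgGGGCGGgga
Map3k6: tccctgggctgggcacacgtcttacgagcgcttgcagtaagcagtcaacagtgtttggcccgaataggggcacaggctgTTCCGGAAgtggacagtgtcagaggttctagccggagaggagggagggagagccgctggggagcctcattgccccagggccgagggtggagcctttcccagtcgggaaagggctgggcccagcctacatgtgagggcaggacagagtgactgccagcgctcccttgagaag

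The windows of Mapk11, Mapk12, Map4k2 and Map3k9 held 4, 1, 5 and 3 GC boxes, which bind SP-type factors and are common in promoters without a TATA box. That of Map3k6 held no GC box and 2 overlapping ETS cores. The RUNX core was in none of these 5 windows, which says only that those letters are absent from these 250 bases. Over the table, 18.59% of 32851 promoter windows held a RUNX core, 32.74% a GC box, 12.03% an ETS core, 9.988% the GATA motif, 6.749% the AP-1 motif and 6.469% the CRE core. Among 41 windows of the 30 tested members in the table, 7 held a RUNX core, in Map2k4, Map2k6, Map2k7, Map3k7, Mapk8 and Mapk14. None of those 6 genes was called with Dox, beside 14.5% of all tested genes called at 1 stage or more. With 6 genes nothing is read from this. A GC box was in 25 of the 41 windows, an ETS core in 11, the CRE core in 4, the GATA motif in 2 and the AP-1 motif in 2. Map3k15, Map3k2, Map3k8, Map4k4, Mapk3 and Mapk4 were among those with no window in the table. GC made up 62.8 to 74.0% of the 5 windows shown, beside a median of 52.4% over the table.

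MAP4K genes stand at the top of the relay, and 3 of the 4 tested were called with Dox at 1 stage or more. This tier is too small to be set against the 14.5% of all tested genes called at 1 stage or more. Map4k2, which encodes a kinase that activates JNK and p38 modules, was called in myeloid progenitors, where it read 9.18, 9.19 and 9.13 without Dox and 11.60, 11.79 and 11.57 with Dox. The induced arrays were far above the uninduced ones, by 2.48 ± 0.45 (SE) on the log2 scale or 5.60-fold, at an adjusted P of 0.000828 by limma. In HE it read 10.24, 9.20 and 10.97 without and 11.82, 10.94 and 12.74 with Dox, so that the groups overlapped by a single pair of arrays, and the change of 1.69 ± 0.45 had an adjusted P of 0.0141. In HE2 the uninduced arrays read 10.25, 9.60 and 11.06 and the induced ones 11.97, 11.96 and 11.06, touching at one edge (change 1.36 ± 0.45, adjusted P 0.0451). In progenitors 9.96 and 10.55 stood against 11.72 and 12.09 (change 1.65 ± 0.55, adjusted P 0.0935). The estimates had 1 sign at all 4 stages, but in the fit of all 22 arrays the gene met the calling rule only in myeloid progenitors. In HE it was called in 4 of 21 other settings. Among them were the adjusted P without a fold limit and the fit without the 4 deviating arrays. The response in myeloid progenitors minus that in HE, 0.79, was not called.

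Map4k1, encoding HPK1, a kinase largely restricted to blood cells that dampens receptor signalling, was called lower in HE. There it read 11.90, 12.09 and 11.64 without Dox and 9.99, 10.90 and 11.12 with Dox. All induced arrays were below all uninduced ones, by 1.21 ± 0.24 on the log2 scale, or 2.31-fold, at an adjusted P of 0.00178 by limma. The lowest induced array was replicate 1, and without it the change was -0.87 and no longer called. Within slide 1 the difference was -2.00 and within slide 2 -0.63. In HE2 the uninduced arrays at 11.78, 12.15 and 11.90 were again above the induced ones at 11.02, 10.77 and 11.43 (change -0.87 ± 0.24, adjusted P 0.0176). The estimates in progenitors, -0.65, and in myeloid progenitors, -0.54, had adjusted P values of 0.222 and 0.161.

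Map4k4, encoding HGK, rose in myeloid progenitors, from 12.07, 12.30 and 11.98 to 13.75, 13.25 and 13.27. This was a change of 1.30 ± 0.18, or 2.47-fold, with no overlap of the arrays and an adjusted P of 7.93e-05 by limma. In HE2 the induced arrays, at 14.47 to 14.74, also lay above the uninduced ones, of which the highest read 14.34, but the change of 0.39 ± 0.19 had an adjusted P of 0.164. The change in progenitors was 0.25 with overlapping arrays. In HE it was -0.14, and the response in myeloid progenitors exceeded that in HE by 1.44 ± 0.26 (adjusted P 0.00196 for the interaction). Whether it exceeded those in HE2 and progenitors was not tested. A second Map4k4 probe, with a lower mean, gave changes of 1.59 in myeloid progenitors and 0.45 in HE. Map4k5, encoding a kinase related to that of Map4k2, did not reach 2-fold, but had near-equal changes of 0.72 for HE2, 0.73 for progenitors and 0.74 for myeloid cells, with adjusted P values of 0.00155, 0.0159 and 0.00141, against -0.15 in HE. Its HE arrays read 12.91, 13.05 and 13.18 without and 13.07, 12.80 and 12.82 with Dox, whereas its HE2 arrays rose from 12.09, 12.32 and 12.18 to 12.85, 12.82 and 13.09. The difference between the HE2 and HE responses, 0.87 ± 0.20, had an adjusted P of 0.0459, and that between myeloid progenitors and HE, 0.89 ± 0.20, of 0.00926.

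Among MAP3K genes, 4 of the 15 tested were called with Dox in at least 1 stage, where 14.5% of all tested genes were. Map3k6 and Map3k15 encode the kinases known as ASK2 and ASK3, relatives of the oxidative-stress kinase ASK1. Map3k6 read 8.12, 8.86 and 7.97 on uninduced HE arrays and 10.66, 11.53 and 11.53 on induced ones. The rise of 2.92 ± 0.29, or 7.58-fold, was the highest of any member in a Dox comparison (adjusted P 1.8e-06 by limma). Within slide 1 the difference was 2.16 and within slide 2 it was 3.56. In HE2 the arrays read 9.52, 10.12 and 9.68 without and 10.22, 10.02 and 10.89 with Dox and overlapped. The response there minus that in HE was -2.31 ± 0.41 (adjusted P 0.0118 for the interaction), which was called in all 27 other settings. In progenitors 10.87 and 11.20 stood against 11.03 and 10.74. Myeloid progenitors rose from 9.85, 9.35 and 9.46 to 10.40, 10.91 and 10.68 without overlap (change 1.11 ± 0.29, adjusted P 0.0144, P 0.00126), which missed the calling rule. Between myeloid progenitors and HE the response differed by -1.81 ± 0.41 (adjusted P 0.0096), a call lost in 6 of 26 other settings, each leaving out 1 array of HE or myeloid progenitors.

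Map3k15 rose in HE from 6.06, 6.03 and 5.86 to 8.08, 7.48 and 7.31, and in HE2 from 6.81, 6.41 and 6.60 to 8.44, 7.84 and 8.08. In both stages every induced array lay above every uninduced one, with changes of 1.64 ± 0.25 (adjusted P 0.000128) and 1.51 ± 0.25 (adjusted P 0.000323). In progenitors the induced arrays read 7.15 and 8.21, against 7.07 and 6.59 uninduced, and the 2 induced arrays differed from each other by over 1 log2 unit (change 0.85 ± 0.30). Within slide 1 the difference was 0.08, and the induced array at 8.21 was on the slide of the myeloid arrays. In myeloid progenitors the levels were 7.56, 7.43 and 7.36 without and 7.60, 7.52 and 7.61 with Dox, a change of 0.13 with a 95% interval of -0.39 to 0.64, which minus the change in HE was -1.52 ± 0.35 (adjusted P 0.0105). That call was lost in 7 of 26 other settings, 4 of them leaving out 1 array. Map3k5, encoding ASK1, was not called at any stage and changed by -0.55 to -0.27 over the 4 stages.

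Map3k9 encodes MLK1, a mixed-lineage kinase that feeds JNK signalling. It was a dim gene without Dox, with 6.29, 6.24 and 6.03 in HE, 6.11, 5.98 and 5.61 in HE2 and 5.60, 5.87 and 5.58 in myeloid progenitors. With Dox it read 8.01, 8.21 and 7.98 in HE, 7.30, 6.61 and 7.89 in HE2 and 6.48, 7.12 and 6.69 in myeloid progenitors. The arrays did not overlap in any of these stages, and the changes were 1.88 ± 0.25 (adjusted P 3.38e-05), 1.37 ± 0.25 (adjusted P 0.000788) and 1.08 ± 0.25 (adjusted P 0.00558). No uninduced array of Map3k9 reached the limit of 6.5, so that it was tested only through its induced arrays, and its calls are to be read with that limit in mind. Progenitors read 6.17 and 6.31 without and 6.30 and 6.52 with Dox, a change of 0.17 with a 95% interval of -0.46 to 0.81. Its 2 other probes were near background, well above it on 3 and on 1 of the 22 arrays, and changed by 0.08 and 0.29 in HE, so that the rise rests on 1 probe. In myeloid progenitors the call was lost in 7 of 19 other settings, namely an offset of 50, 75th percentile scaling, the deposited log2 values and each of 4 arrays left out, the estimate ranging from 0.75 to 1.23. With the mean of its probes the gene was too dim to be tested.

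Map3k14, encoding NIK, the kinase of the non-canonical NF-κB pathway, was called lower in progenitors, from 9.39 and 9.03 to 8.32 and 7.85. The change was -1.12 ± 0.26 (adjusted P 0.0151 by limma) with 2 arrays on each side. It was lost without uninduced replicate 1 (-0.94) or induced replicate 2 (-0.89), and with the slide (-1.01), the scan date (-0.89) or the replicate number (-1.12, P just over 0.001) as a block. A second, dimmer Map3k14 probe read 0.61 higher with Dox in progenitors, the opposite sign. On the probe used, HE read 8.50, 8.26 and 8.04 without and 7.58, 7.78 and 7.52 with Dox, a change of -0.64, and HE2 8.46, 8.68 and 8.30 without and 8.01, 7.62 and 7.76 with Dox (change -0.68 ± 0.22, adjusted P 0.0351). In myeloid progenitors the groups overlapped, with a change of -0.27. Map3k3 and Map3k11, the latter encoding MLK3, were 1.15 and 0.86 higher with Dox in myeloid progenitors, with adjusted P values of 0.285 and 0.261. Their myeloid groups did not overlap. Both are among the genes that were low on the 4 arrays described above.

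None of the 7 MAP2K genes was called with Dox at any stage or had an adjusted P of at most 0.05, and with 7 genes nothing is read from this beside the 14.5% of all tested genes called at 1 stage or more. Map2k1 and Map2k2, encoding the MEK kinases that activate ERK, changed by -0.44 to 0.28 and by -0.40 to 0.17 over the 4 stages. Map2k3 and Map2k6, which activate p38, changed by -0.55 to 0.13 and by -0.57 to 0.79, and Map2k4 and Map2k7, which activate JNK, by -0.13 to 0.21 and by -0.12 to 0.29. Map2k5, the activator of ERK5, changed by -0.29 to 0.25. Map2k6 in myeloid progenitors had the highest estimate of the tier. It read 8.17, 7.86 and 8.16 without and 9.02, 8.76 and 8.77 with Dox, which did not overlap (change 0.79 ± 0.31, adjusted P 0.102).

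In the MAPK tier, 2 of the 11 tested genes were called with Dox at 1 stage or more, where 14.5% of all tested genes were. Both are p38 genes, and nothing is read from the count. Mapk11, encoding p38β, read 7.78, 8.19 and 7.98 in uninduced myeloid progenitors and 10.30, 9.90 and 9.65 in induced ones. All induced arrays were higher, by 1.96 ± 0.33 or 3.904-fold (adjusted P 0.000377 by limma). In HE2 it read 9.65, 8.73 and 9.39 without and 10.63, 10.12 and 10.24 with Dox (change 1.08 ± 0.33, adjusted P 0.0294), and in progenitors 9.11 and 8.04 stood against 9.84 and 9.30 (change 1.00 ± 0.40, adjusted P 0.168). In HE the arrays overlapped and the change was 0.49 ± 0.33. Mapk12, its neighbour gene encoding p38γ, rose in myeloid progenitors from 8.68, 9.13 and 8.87 to 10.61, 10.87 and 10.38. This was 1.73 ± 0.25 or 3.32-fold (adjusted P 0.000106). In HE the uninduced arrays read 12.79, 12.44 and 12.69 and the induced ones 11.88, 11.84 and 12.80, a change of -0.47 with a 95% interval of -0.999 to 0.06, and the myeloid response exceeded that in HE by 2.20 ± 0.36 (adjusted P 0.000832). In HE2 and progenitors Mapk12 changed by 0.05 and 0.14. For Mapk11 the same difference was 1.47 ± 0.46 and did not pass (adjusted P 0.0669). Mapk14, encoding p38α, the widely expressed form, changed by 0.10 to 0.33 over the 4 stages, with 1 uninduced progenitor spot left out of the fit as an outlier, and Mapk13, encoding p38δ, was dim, with changes of -0.97 to 0.32, none called.

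**Figure D3:**
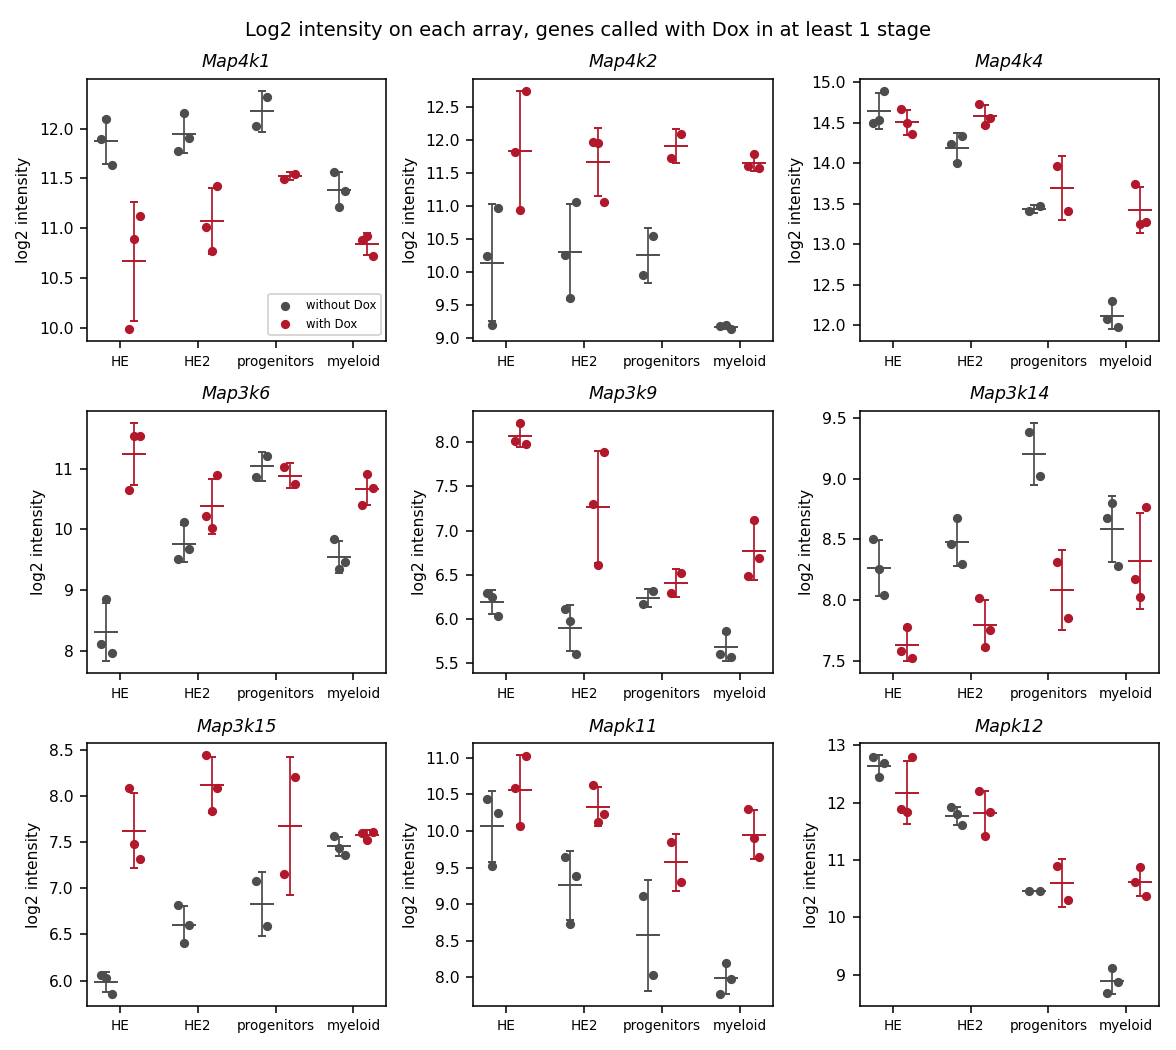
Log2 intensity (y axis) on each fitted array at the 4 stages (x axis), without Dox in grey and with Dox in red, for the 9 members called with Dox in at least 1 stage; horizontal marks are group means and bars are SD. Map4k2, Map4k4, Mapk11 and Mapk12 show wholly separate groups in myeloid progenitors, and Map3k6 in HE, where it rose from a mean of 8.32 to 11.24.

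Mapk3, encoding ERK1, changed by 0.08 to 0.93. Its 12.78, 12.91 and 12.88 in uninduced and 13.78, 13.82 and 13.75 in induced myeloid progenitors did not overlap, with SDs of 0.07 and 0.04. The change of 0.93 ± 0.49 had an adjusted P of 0.25, and its SE comes from the spread pooled over all groups, which for this gene was 0.78 to 0.94 (SD) in the 4 HE and HE2 groups that hold the deviating arrays. Mapk7, encoding ERK5, had changes of 0.56 ± 0.16 in HE2 (adjusted P 0.0201) and 0.58 ± 0.16 in myeloid progenitors (adjusted P 0.0204), below 2-fold, from 12.99, 13.08 and 12.67 to 13.35, 13.25 and 13.83 and from 11.71, 11.58 and 11.59 to 12.26, 12.15 and 12.20. Mapk8 and Mapk9, which encode JNK kinases, changed by 0.13 to 0.67 and by -0.0021 to 0.19, Mapk6, encoding ERK3, by -0.55 to -0.06, and none of these was called. Mapk4, encoding ERK4, was not well above background on any uninduced and on 2 of 3 induced myeloid arrays, and the groups overlapped there (adjusted P 0.843).

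**Figure D4:**
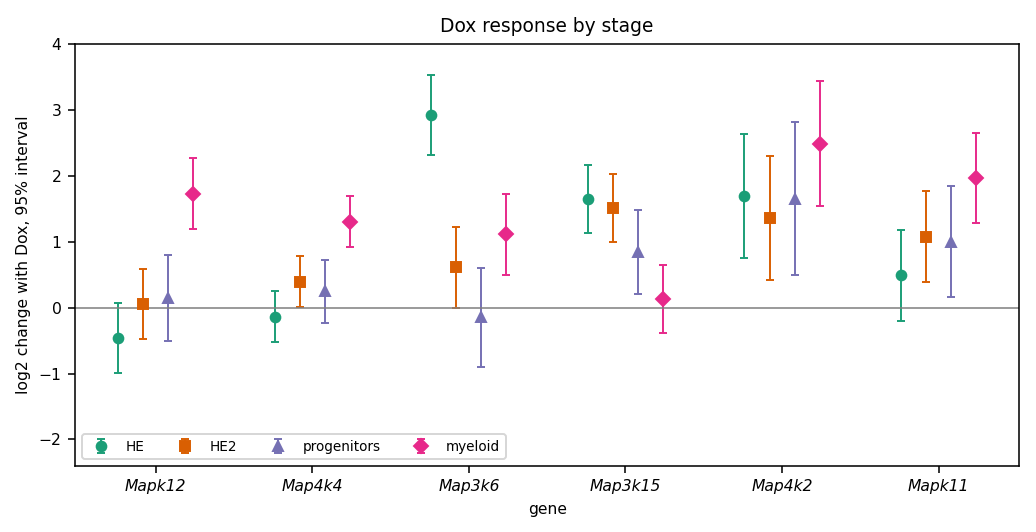
Log2 change with Dox (y axis, bars are 95% intervals of the limma fit) by stage for 6 members (x axis). Mapk12 and Map4k4 lie near 0 or below in HE and at 1.73 and 1.30 in myeloid progenitors, whereas Map3k6 is highest in HE at 2.92 and Map3k15 is at 0.13 in myeloid progenitors.

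Whether the response to Dox differed between stages was tested as an interaction. Map3k6 was the only member called between HE2 and HE (1.34% of all tested genes were), and no member was called between progenitors and HE2 (0.645%). In the latter, 3 of the 37 had an unadjusted limma P under 0.05, beside 1232 of all 15202 tested genes, and nothing is read from this. Between myeloid progenitors and HE 4 were called (4.72% of all genes), 2 higher in myeloid progenitors (Mapk12 and Map4k4) and 2 lower (Map3k6 and Map3k15). With the slide or the scan date as a block these 4 kept their calls. Induced myeloid progenitors had Dox for 12 h in cytokine medium, and induced HE from day 1 of blast culture. Between these 2, stage cannot be told apart from the length of Dox and the medium.

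Markers of other cell types moved in the same comparisons. In uninduced and induced myeloid progenitors the summed level of 6 endothelial markers (log2 of the summed intensities) ranged from 13.3 to 13.8 and from 15.3 to 15.6, and 4 of the 6 were called higher with Dox (Cdh5, Emcn, Esam and Kdr). Tek, which encodes the Tie2 used in the sort, rose there by 3.07, and its changes in HE, HE2 and progenitors were 0.97, 1.73 and 2.43, with adjusted P values of 0.454, 0.112 and 0.124. Itga2b, which encodes CD41, fell by 3.21 in HE. Its means without and with Dox were 11.8 and 9.4 in HE2, 11.7 and 11.5 in progenitors, and 14.3 and 13.4 in myeloid progenitors. It was called at none of these later stages. In HE2 the endothelial sum ranged from 15.4 to 15.9 without and from 16.5 to 16.7 with Dox, and in progenitors from 14.5 to 14.5 and from 15.2 to 15.5, whereas in HE it was 16.1 to 17.0 and 16.1 to 16.8. The sum of 5 cardiac and smooth muscle markers ranged in HE from 16.7 to 17.8 without and from 15.2 to 15.6 with Dox, in HE2 from 14.9 to 16.7 and from 13.5 to 13.6, and in myeloid progenitors from 11.2 to 11.7 and from 12.6 to 13.1. In HE 1 of the 5 was called lower (Acta2) and 1 higher (Myl7), and in HE2 3 were lower (Acta2, Actc1 and Tagln). In myeloid progenitors and in progenitors only 1 of the 5, Tnnt2, was called, and it was higher. The sum of 3 erythroid markers ranged in HE from 14.8 to 15.3 without and from 17.2 to 18.2 with Dox, and in HE2 from 16.1 to 16.6 and from 18.2 to 18.5, with Hbb-bh1 called higher in both. Of the epithelial keratins, Krt18 was lower in HE, and Krt18 and Krt8 in HE2. Blood markers were called lower too. Of 6 haematopoietic markers this was Spi1, in HE2 and in progenitors. Of 3 macrophage markers Csf1r and Cd14 were lower in HE2. Of 3 granulocyte markers Mpo was lower in HE2 and Prtn3 in progenitors. None of these blood markers was called with Dox in HE or in myeloid progenitors. The part of all these markers in the changes of Map4k2, Map4k4, Mapk11, Mapk12, Map3k6, Map3k9 and Map3k15 was not tested. In bulk RNA a change in the number of cells and in RNA per cell cannot be told apart. Of the defining markers, Epcam of the epithelial list and Pou5f1 and Zfp42 of the pluripotent list lay below the limit on all fitted arrays. Nanog, the remaining gene of the pluripotent list, lay above it on all of them. Its group means ranged from 7.02 in uninduced HE2 to 9.24 in induced myeloid progenitors.

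The uninduced arrays were also compared along the path from HE to myeloid progenitors. From HE to HE2, 1 of 37 members was called (5.07% of all genes) and 4 had an adjusted P of at most 0.05 (10.6%). Map3k6 rose by 1.45 ± 0.29 (adjusted P 0.00310), and Mapk12, Map4k5 and Mapk7 changed by -0.87, -0.85 and -0.67 (adjusted P 0.0333, 0.000728 and 0.00994). From HE2 to progenitors, 2 were called (5.39%) and 5 passed the adjusted P (8.18%). Mapk12 fell by 1.31 ± 0.28 and Map4k5 by 1.13 ± 0.16 (adjusted P 0.00537 and 9.24e-05), the first a call lost in 4 of 19 other settings, and Mapk7, Map4k4 and Map3k6 changed by -0.84, -0.75 and 1.27. The progenitor arrays of Map4k5, at 11.09 and 11.03, lay below all HE2 arrays.

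From progenitors to myeloid progenitors, 4 members were called (13.9% of all genes) and 9 passed the adjusted P (33.1%). Map2k6, an activator of p38, fell by 2.54 ± 0.34, from 10.21 and 11.01 to 8.17, 7.86 and 8.16, or 5.84-fold (adjusted P 2.35e-05). Mapk12 fell by 1.57 ± 0.28, Map3k6 by 1.48 ± 0.32 and Map4k4 by 1.32 ± 0.21. The remaining 5 were Map3k11, Map2k5, Map4k1 and Map3k4, with changes of -1.53, -0.84, -0.79 and -0.60, and Map3k2 with 0.65. A second Map2k5 probe changed by -0.01. All myeloid arrays were on 1 slide, scanned apart from the uninduced progenitor arrays on the other slides, and with the slide or the scan date as a block none of the 4 calls remained, while over all tested genes the called share fell from 13.9 to 3.78 and 3.83%. The member changes were -2.03, -1.01, -1.12 and -0.74 for Map2k6, Mapk12, Map3k6 and Map4k4 under the slide block. With these 2 blocks included, the Map3k6 call was lost in 7 of 18 other settings and those of Map2k6, Mapk12 and Map4k4 in 2 each. The 1 additional uninduced progenitor array on the myeloid slide read 10.04 for Map2k6, 9.77 for Mapk12, 10.91 for Map3k6 and 13.25 for Map4k4. The uninduced myeloid means minus this array were -1.98, -0.87, -1.36 and -1.13.

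**Figure D5:**
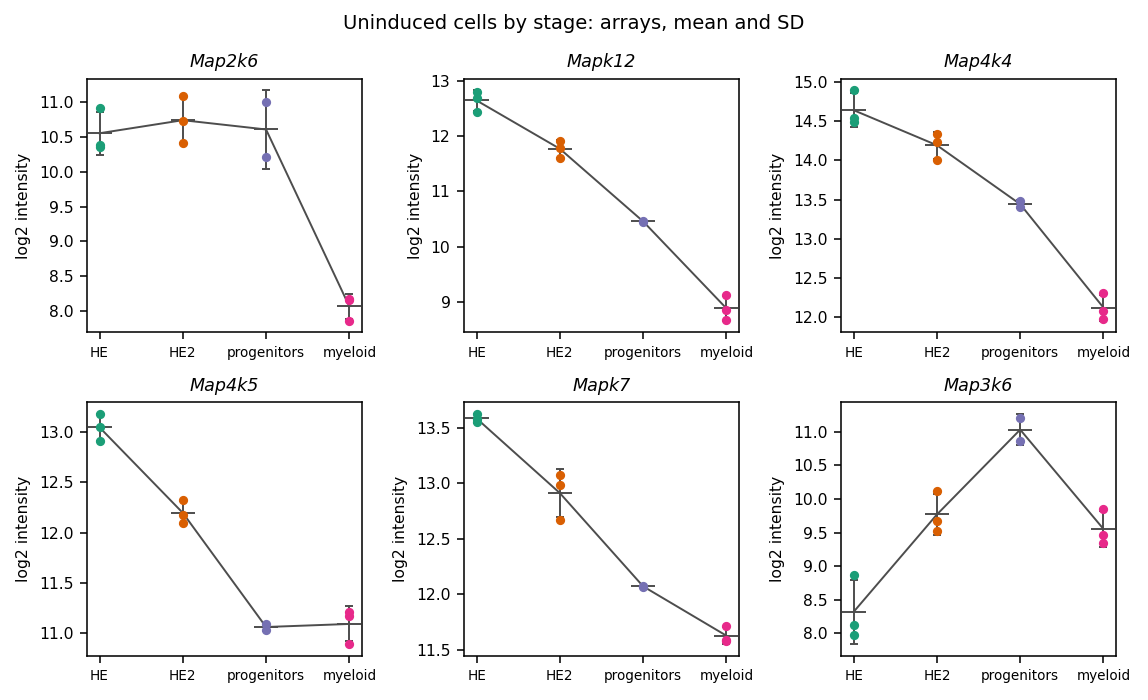
Log2 intensity (y axis) of uninduced cells by stage (x axis) for 6 members; dots are arrays, marks the group mean and bars SD. Mapk12, Map4k4, Map4k5 and Mapk7 have lower means from HE to progenitors, Map2k6 is near 10.6 in progenitors and 8.06 in myeloid progenitors, and Map3k6 is highest in progenitors.

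Uninduced Mapk12 had the widest range of the p38 genes, from a mean of 12.64 ± 0.18 (SD, n = 3) in HE through 11.77 ± 0.16 in HE2 and 10.46 in progenitors to 8.89 ± 0.22 in myeloid progenitors, each neighbouring step with an adjusted P of at most 0.0333. With Dox the myeloid mean was 10.62 ± 0.25. Mapk11 followed a like order, with means of 10.07, 9.26, 8.57 and 7.98, but no uninduced step passed, and the arrays of neighbouring stages overlapped. Mapk7, with means of 13.59, 12.91, 12.07 and 11.63, passed the adjusted P in both steps from HE to progenitors without reaching 2-fold. The Dox comparisons and the uninduced steps share the uninduced arrays and are not independent.

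The wider pathway was described by lists of Ras GTPases, Ras exchange factors with GAPs and adaptors, RAF and other kinases at the MAP3K and MAP4K level, scaffolds, MAPK-activated kinases, MAPK phosphatases and inducible transcription factors. Among 84 genes tested in all, Dox gave 4 calls in HE (4.76%, beside 7.09% of all tested genes) and 4 in HE2 (4.76% beside 7.22%). It gave 3 in progenitors (3.57% beside 3.73%) and 6 in the myeloid cells (7.14% beside 6.31%), near the background, so that the genes named next are single genes and not a response of the lists. Their median log2 changes were 0.03, 0.20, 0.04 and 0.16. Of 11 phosphatases, which remove the phosphates of the activation loop, Dusp9 fell by 1.47 in HE, Dusp10 rose by 1.91 in HE2 and by 2.87 in progenitors, and Dusp2 and Dusp4 rose by 1.94 and 1.35 in myeloid progenitors. Of 11 MAPK-activated kinases, Rps6ka6 fell in HE, HE2 and myeloid progenitors, with changes of -1.25, -1.13 and -1.17, and Rps6ka2 rose by 1.31 in progenitors. Both encode RSK kinases, direct targets of ERK. Tnik, a kinase related to Map4k4, rose by 1.86 in HE and 1.096 in HE2, the only 1 of 14 in its list called. The nucleotide exchange factors Rasgrp2 and Rasgrp3 rose by 1.82 in HE and 1.21 in progenitors. In HE2, Egr2 was the only 1 of 13 inducible transcription factors called (1.40). In myeloid progenitors, Rras rose by 1.30, and of the scaffolds Spag9, which binds JNK and p38 modules, rose by 1.22 and Pea15a, which holds ERK in the cytoplasm, by 1.06. From progenitors to myeloid progenitors without Dox, 13 of the 84 were called (15.5%, beside 13.9% of all tested genes), and none with the slide or the scan date as a block, under which 3.78 and 3.83% of all tested genes were.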

How the data were processed

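The 23 arrays (Agilent SurePrint G3 for mouse, 1 colour) lay on 3 slides. The authors deposited the median intensity and background of each spot as read by Feature Extraction (10.7.3.1 per the file headers, 10.7.1.1 per the labels), without normalization between arrays, and log2 values per array that the authors had normalized, used here as an alternative. The arrays were annotated on another build (mm9), and RefSeq tables on GRCm38.p6 served for names and promoters alone. From the intensities, background was corrected with normexp (offset 16), control and outlier spots were left out, and 23 arrays were quantile normalized. The brightest probe on average stood for a gene (26582 of 55681 probes had a symbol), and 15202 genes reaching a log2 intensity of 6.5 on at least 1 array were tested on 22 arrays in limma 3.58.1 (lmFit, eBayes; R 4.3.3), with a mean per group, 14 residual degrees of freedom and 1 estimate of the spread. The test was checked on simulated data. Any member could be named, with every array for those called or with an adjusted P of at most 0.05, and from other lists members called with Dox, at most 3 rises and 3 falls per list. The values of 1 member are not reported here. Members and lists were chosen with earlier results of these data known.

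Same-numbered arrays of uninduced HE and uninduced HE2 deviated together, with correlations of 0.394, 0.795 and 0.608 over all tested genes, and those numbers were taken to pair them; the numbers of other comparisons with 3 pairs did not. The number of arrays limits the precision, and no spot was saturated. Alternatives tried were starting from the deposited log2 values, leaving background uncorrected or taking an offset of 50, 75th percentile scaling, other filters on dim probes, the mean of a gene's probes, an adjusted P of 0.05, slide, scan date or replicate number as a block, only the groups compared, the additional progenitor array as a replicate, leaving out each array, and, chosen after seeing the data, normalizing the slide sets apart, pairing uninduced HE and HE2 only, and leaving out 4 arrays that deviate together.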

Additional observations from a re-analysis of the deposited data

Results flagged for a closer look

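The responses to Dox of 4 members differed between stages by the test of the interaction itself. For myeloid progenitors against HE, stage cannot be told apart from the length of Dox and the culture medium. Map3k6 responded less in HE2 than in HE, by -2.31 on the log2 scale, and less in myeloid progenitors than in HE, by -1.81. Map3k15 responded less in myeloid progenitors than in HE, by -1.52. Mapk12 and Map4k4 responded more in myeloid progenitors than in HE, by 2.20 and 1.44. No member moved wholly up in one stage and wholly down in the other of a compared pair.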

How the results depend on the processing

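Of 48 changes of members that passed either threshold, none turned its sign in 993 refitted values, 905 of which left the call as it was. The changes were chosen for passing in these same arrays, which the refits reuse, so that a turn of sign was unlikely from the start. At an adjusted P of at most 0.05 without a fold limit, the members called were 8 with Dox in HE2 and 8 in myeloid progenitors, 2 in progenitors, 4 from HE to HE2, 5 from HE2 to progenitors, 9 from progenitors to myeloid progenitors, and 2 for HE2 minus HE. For HE2 minus HE, 135 of all 15202 tested genes passed this limit, and the shares for the other comparisons are given above. The single call with Dox in progenitors (Map3k14) became 0 with 75th percentile scaling, the mean of a gene's probes, the slide, the scan date or the replicate number as a block, or only the groups compared. Over all tested genes the calls with Dox in progenitors fell from 567 to 331 with the slide and 349 with the scan date as a block. They were 432 with 75th percentile scaling, 535 with the mean of a gene's probes, 553 with the replicate block and 216 with only the groups compared. With Dox in HE2, 1 member was called with the mean of a gene's probes and 1 with only the groups compared, which also gave 0 from HE to HE2. In the same settings the calls over all tested genes fell from 1098 to 1012 and 718 with Dox in HE2. With only the groups compared they fell from 770 to 465 from HE to HE2. From progenitors to myeloid progenitors, 0 were called with the slide and 0 with the scan date as a block, under which the calls over all tested genes fell from 2118 to 574 and 582. For the response in progenitors minus HE2, 1 (Map3k15) was called with the slide as a block, under which 64 of all 15202 tested genes were. The cause of these moves was not tested.

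With the replicate block the count from HE to HE2 stayed at 1, also when only uninduced HE and HE2 were paired, and 3 members were called with Dox in HE2. Over all tested genes the calls from HE to HE2 were 772 and 819 in these 2 settings, beside 770 without a block. With Dox in HE2 they were 1102 with the replicate block, beside 1098. The replicate block changed the member count of no other comparison by over 1.5 times except that it gave 0 with Dox in progenitors.

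Without each array in turn, the counts with Dox ranged from 3 to 5 for HE and from 2 to 3 for HE2, from 0 to 3 for progenitors and from 4 to 5 for myeloid cells. They ranged from 1 to 1 from HE to HE2, 1 to 3 from HE2 to progenitors and 3 to 4 from progenitors to myeloid progenitors, and from 1 to 1, 0 to 1 and 2 to 4 for HE2 minus HE, progenitors minus HE2 and myeloid progenitors minus HE. In progenitors the count was 0 without uninduced replicate 1 or induced replicate 2 and 3 without induced replicate 1. A lone array was then assumed to vary like those of other groups. From HE2 to progenitors 1 was called without uninduced HE2 replicate 1 or either uninduced progenitor array. For progenitors minus HE2, 1 (Map3k9) was called without induced HE2 replicate 2. For myeloid progenitors minus HE 2 were called without uninduced HE replicate 3 or uninduced myeloid replicate 1. Calls over all tested genes were not counted for the fits without an array, so nothing is read from these ranges about the members as a group.

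Scaling to the 75th percentile moved the median of all genes from -0.12 to -0.25 from progenitors to myeloid progenitors, where the share of higher calls went from 50.24 to 36.96%, from -0.04 to -0.19 with Dox in progenitors and from -0.02 to -0.15 with Dox in myeloid progenitors.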
